A study of Drosophila melanogaster with 5 samples.

Results

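Mirtrons are microRNAs whose precursor hairpin is an entire short intron. The members studied here were the 10 hairpins mir-1003, mir-1004, mir-1005, mir-1006, mir-1007, mir-1008, mir-1010, mir-1012, mir-1015 and mir-1016, chosen by name. They made up 10 of the 259 hairpins and 18 of the 479 mature-arm rows of the deposited count table. Most microRNA precursors are cut out of a longer transcript by the nuclease Drosha. A mirtron is instead cut out by the spliceosome, its lariat is opened by the debranching enzyme, and the linear intron folds into a hairpin that Exportin-5 and Dicer-1 then handle like any other precursor. In flies the uridylyltransferase Tailor is known to add uridines to mirtron hairpins, whose last bases are those of the splice acceptor. Since every molecule of such a microRNA comes from a spliced transcript of its host gene, mirtron levels depend on transcription and splicing of the host as well as on later steps. Host transcripts were not measured in these libraries.

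The libraries came from 2 to 3 days old adult male flies of strain w1118, which carries a mutation of the eye-colour gene white and served as wildtype, kept on standard food, with no treatment named. One group was dissected intestine (3 libraries) and the other was what remained of the body, called carcass (2 libraries). The carcass is a mixture that includes testis, fat body, epidermis, the nervous system and most of the muscle, and nothing in the labels says whether replicates came from separate flies. Small RNAs of 18 to 29 nt were sequenced, and the deposited values are read counts per mature arm.

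The microRNA reads per library ran from 329424 to 547937 in the intestine and from 1654625 to 3038873 in the carcass, so that 3 reads corresponded to 5.48 to 9.11 CPM (counts scaled to a common library size) in the intestine and to 0.987 to 1.81 CPM in the carcass. Known markers were checked against the tissue labels by their summed CPM on library totals. The testis clusters mir-959 to mir-964, mir-972 to mir-979 and mir-982 to mir-984 (18 hairpins, all 18 lower in the intestine) summed to 35.3 to 45.6 CPM in the intestine and 3142 to 3235 in the carcass. Those of the nervous system and eye (mir-124, mir-210 and mir-263b, all 3 lower) summed to 155 to 234 and 18708 to 27728 CPM. The muscle hairpins mir-1 and mir-133, both lower, summed to 27822 to 41637 and 143062 to 153071 CPM. Of these hairpins, 3 of the testis list had no intestine read. No marker of intestinal cells independent of the microRNAs that the study itself reported was used here.

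The gene models place every member exactly on an intron of a protein-coding gene. In the BDGP6.54 annotation, the hairpin and the intron had the same first and last base in 10 of 10 cases. These introns were 56 to 71 nt long (median 62.5), against a median of 2345 nt for the introns around 74 other intronic hairpins of the table. The 3p arm ended on the last base of the intron in 8 hairpins and 1 nt before it in 2 (mir-1007 and mir-1008). Of the 8 annotated 5p arms, 3 began on the first intron base, 4 began 1 nt inside and that of mir-1007 began 4 nt inside. The table has no 5p row for mir-1005 or mir-1015. Arms were 20 to 25 nt long, so 1 read covers an arm and counts need no scaling by length. Whether different sequences were recovered equally well in library preparation was not tested, which bears on every comparison of one arm with another. The intron belonged to every annotated transcript of its host for 8 hairpins. The exceptions were mir-1008, with 2 of 3 transcripts of CG18004, and mir-1010, with 6 of 7 transcripts of SKIP. No annotated exon of a host spanned any of the 10 introns.

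**Figure D1:**
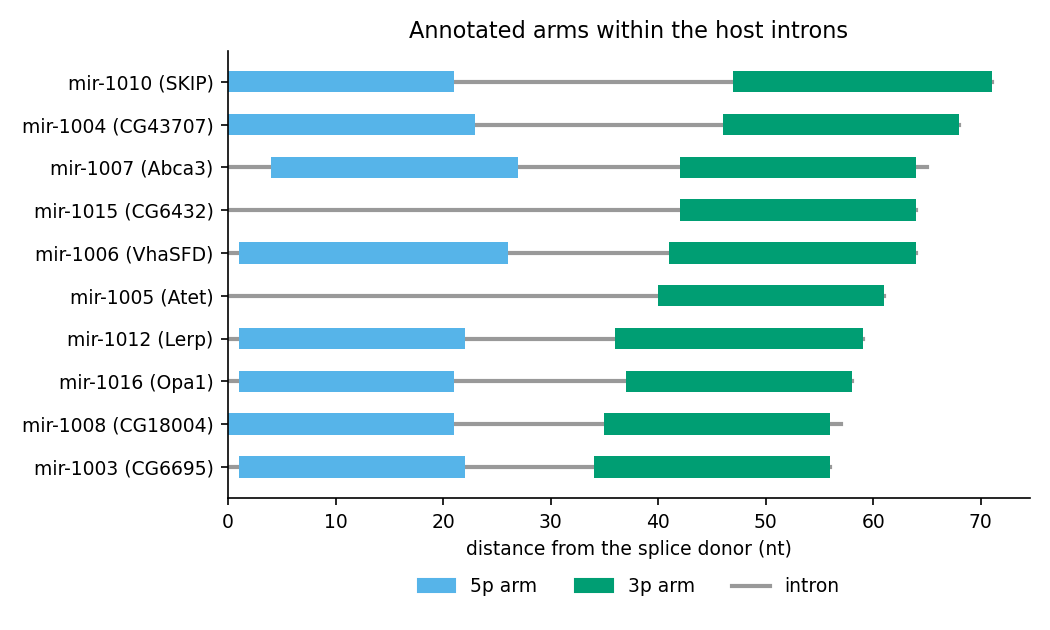
Position of the annotated mature arms (boxes) in the 10 host introns (grey lines), in nt from the splice donor, with the host gene in brackets. The 3p arms end 0 or 1 nt from the splice acceptor at the right end of each intron, and mir-1005 and mir-1015 have a 3p arm only.

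Mirtrons were a small part of the microRNA reads. The 10 hairpins together took 0.345, 0.371 and 0.336% of the reads of the intestine libraries and 0.214 and 0.194% of the carcass libraries, from 13811 reads in all. These shares did not overlap between the tissues. They are on library totals. Without mir-1012 the order of the tissues turned: the other 9 hairpins took 0.113, 0.136 and 0.121% of the intestine libraries and 0.167 and 0.152% of the carcass libraries.

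Tissue differences per host intron were measured on the summed reads of both arms, scaled by trimmed mean of M-values (TMM) factors and tested over all 139 hairpins that passed the low-count filter. Of the 10 mirtrons 9 passed it, and 3 of these were higher in the intestine, 3 were lower and 3 were not called in the quasi-likelihood test of edgeR on 3 and 2 libraries, with Benjamini-Hochberg adjusted p-values and a threshold of 0.05. Among all tested hairpins, 33.8% were called higher and 51.1% lower. The tissues did not overlap for the 3 higher and the 3 lower mirtrons, as for 36% (higher) and 53.2% (lower) of all tested hairpins. The split depended on the scaling, and with library totals 3 were higher and 6 lower. Over all hairpins the median log2 fold change was -0.70 with TMM and -1.43 with library totals. The filter was passed by mir-1004 and mir-1015 through the carcass libraries alone and by the other 7 through both tissues. In bulk tissue, a lower level can mean fewer cells of a type or less of the microRNA per cell, and these cannot be told apart.

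**Figure D2:**
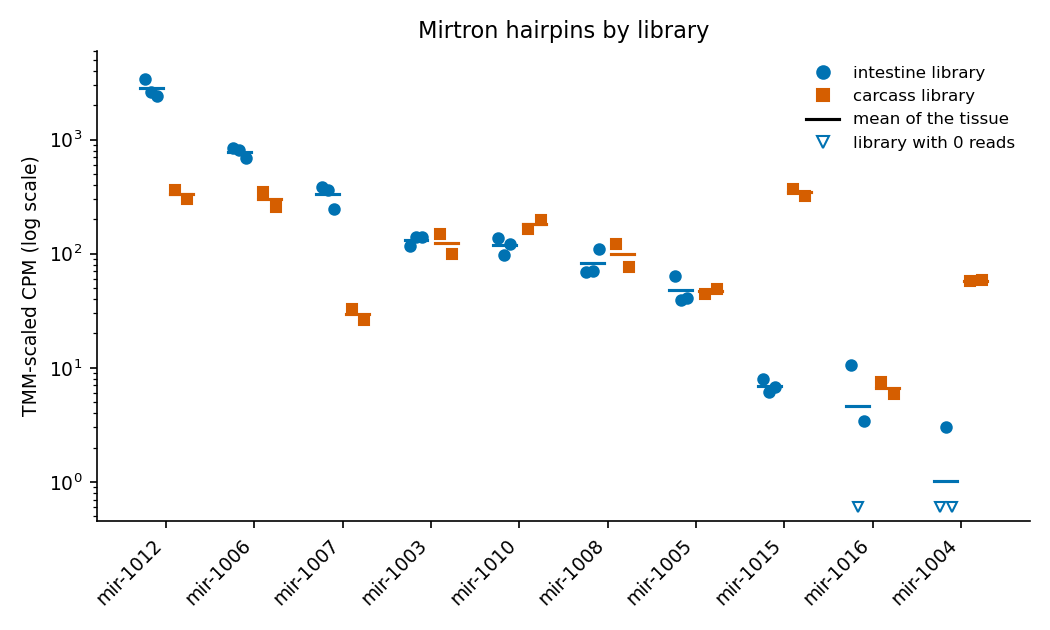
TMM-scaled CPM (log axis) of each mirtron hairpin in each of the 5 libraries, with horizontal lines at the tissue means and open triangles for libraries with 0 reads. The mir-1012, mir-1006 and mir-1007 points lie higher in the intestine, the mir-1015 and mir-1004 points higher in the carcass, those of mir-1010 slightly so, and the tissues overlap for mir-1003, mir-1005, mir-1008 and mir-1016.

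The most abundant mirtron of the intestine was mir-1012, in an intron of Lerp (3R, 26861349 to 26861407, minus strand, 59 nt), which codes for the receptor that sorts enzymes to the lysosome. It measured 3365, 2632 and 2408 TMM-scaled CPM in the intestine libraries and 359.6 and 303 in the carcass libraries. All 3 intestine libraries lay far above both carcass libraries. This is a log2 fold change of 3.08 (SE 0.28, edgeR adjusted p = 1.18e-06), or 8.46-fold, and ranged from 2.35 to 3.17 over the 14 alternatives. The hairpin held 2846 intestine reads and 2060 carcass reads, which makes it the best covered of the members.

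mir-1007 lies in an intron of Abca3, which codes for an ABC transporter (X, 21296385 to 21296449, minus strand, 65 nt). It measured 383.6, 364.7 and 245 CPM in the intestine and 32.5 and 26.4 CPM in the carcass. Its tissues did not overlap either, and its log2 fold change of 3.50 (SE 0.30, edgeR adjusted p = 6.69e-07) was 11.3-fold, from 337 intestine and 182 carcass reads. The log2 fold change ranged from 2.78 to 3.67 over the alternatives. A different short intron of Abca3 holds mir-2535b (X, 21298275 to 21298345), which is outside the 10 members and lies within 10 nt of both ends of that intron. That hairpin had means of 314.6 ± 120.1 CPM over 3 intestine libraries and 89.5 ± 6.19 CPM over 2 carcass libraries (SD), with a log2 fold change of 1.82 (SE 0.32, edgeR adjusted p = 0.000251). Both of these hairpins of Abca3 were therefore called higher in the intestine. Whether their fold changes of 1.82 and 3.50 differ was not tested.

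The third called higher was mir-1006, in an intron of VhaSFD (2L, 16724795 to 16724858, minus strand, 64 nt), a subunit gene of the vacuolar proton pump that acidifies organelles. It measured 846.5, 805.5 and 690.5 CPM in the intestine and 345 and 256 CPM in the carcass. The intestine libraries were all higher, and they differed by a log2 fold change of 1.38 (SE 0.25, edgeR adjusted p = 0.000358). This is 2.60-fold. It fell to 0.67 with library totals and was still called.

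mir-1015, in an intron of CG6432 (3R, 24339232 to 24339295, plus strand, 64 nt), was the most abundant mirtron of the carcass by its mean and rare in the intestine. It had 3, 2 and 2 reads in the intestine libraries against 790 and 1361 in the carcass libraries. On the TMM scale these are 7.94, 6.08 and 6.80 CPM against 367 and 321 CPM. Intestine values are close to the level of single reads while the carcass values are covered well, and the tissues differed by a log2 fold change of -5.60 (SE 0.34, edgeR adjusted p = 5.15e-08), 48.6-fold lower in the intestine. With library totals the log2 fold change was -6.34. On library totals the intestine libraries held 1.22 ± 0.08% of the carcass level (SD, n = 3). The same measure was 1.29 ± 0.17% for the testis markers, 0.79 ± 0.19% for those of nervous system and eye and 23.7 ± 4.69% for those of muscle. The part of these cell types in the mir-1015 difference was not tested.

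mir-1004, in an intron of CG43707 (2L, 3767621 to 3767688, plus strand, 68 nt), had 1 read in all intestine libraries together, in replicate 2. The carcass libraries held 124 and 248 reads. Its 3p arm, with 371 of these carcass reads, was 69.1-fold lower in the intestine (95% exact counting interval 12.3 to 2736, on pooled TMM-scaled depth). The hairpin was called lower (edgeR adjusted p = 1.12e-05). The interval is wide because it rests on 1 intestine read, and the intervals given here cover counting error only, because reads without molecular identifiers are not independent molecules.

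mir-1010, in an intron of SKIP (3R, 22292879 to 22292949, plus strand, 71 nt), whose product interacts with the Shal potassium channel, had the smallest of the called differences on the TMM scale. It measured 137.6, 97.3 and 122 CPM in the intestine and 165 and 196 CPM in the carcass. The tissues did not overlap but lay close. The difference of -0.60 on the log2 scale (SE 0.25, edgeR adjusted p = 0.0409) was called, and the call was lost with the replicate number as a block (adjusted p = 0.154), in thinned libraries (0.0511) and without carcass replicate 2 (0.0565). The log2 fold changes there were -0.62, -0.67 and -0.60. With library totals it was -1.34 (adjusted p = 7.79e-05), and over all 14 alternatives it ran from -1.34 to -0.60. In the fit on arms, miR-1010-3p had a log2 fold change of -0.83 (SE 0.25, edgeR adjusted p = 0.00345). Over the alternatives this arm ran from -1.35 to -0.61, and it stayed called in 13 of the 14.

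The other 3 tested mirtrons did not pass the test. mir-1003, in an intron of CG6695 (3R, 24658605 to 24658660), measured 132 ± 13.4 CPM in 3 intestine libraries and 123 ± 34.6 CPM in 2 carcass libraries (mean and SD), a log2 fold change of 0.10 (SE 0.27, edgeR adjusted p = 0.739). mir-1005, in an intron of the ABC transporter gene Atet (2L, 4343696 to 4343756), measured 47.9 ± 13.5 and 46.7 ± 2.96 CPM, with 0.05 (SE 0.31, edgeR adjusted p = 0.873). mir-1008, in an intron of CG18004 (2R, 10885533 to 10885589), measured 82.5 ± 22.8 and 98.5 ± 30.9 CPM, with -0.26 (SE 0.31, edgeR adjusted p = 0.444). Their tissues overlapped on this scale. With library totals all 3 were called lower, at -0.61, -0.70 and -0.97, so these calls depend on the scaling.

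The member that was not tested, mir-1016, lies in an intron of Opa1 (2R, 14233130 to 14233187), a gene of inner mitochondrial membrane fusion. It had 4, 0 and 1 reads in the intestine against 16 and 25 in the carcass. Its 3p arm was 2.48-fold lower in the intestine with a 95% exact counting interval of 0.79 to 12.5, so that no difference could be measured at this depth.

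**Figure D3:**
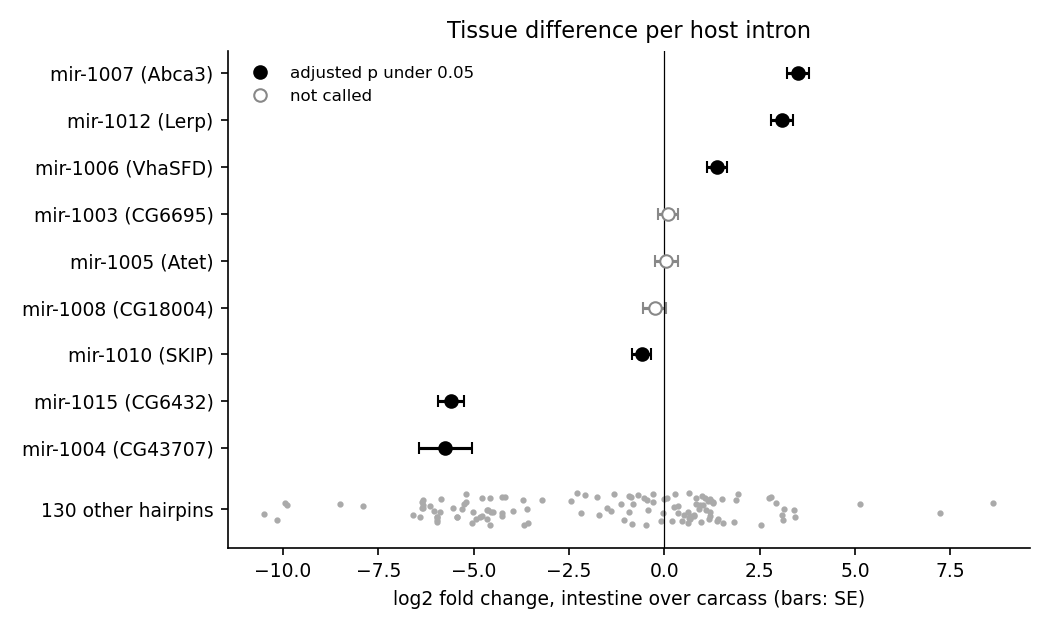
Log2 fold change of the summed hairpin reads, intestine over carcass, for the 9 tested mirtrons with their SE, and below them every other tested hairpin as grey points (spread vertically at random). Filled points passed an adjusted p of 0.05; mirtrons run from -5.75 for mir-1004 to 3.50 for mir-1007.

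The order of the mirtrons differed between the tissues. In the intestine the means ran from mir-1012 (2802 CPM) over mir-1006 (781), mir-1007 (331), mir-1003 (132), mir-1010 (119), mir-1008 (82.5), mir-1005 (47.9), mir-1015 (6.94) and mir-1016 (4.66) to mir-1004 (1.01). Ranges of neighbours overlapped from mir-1003 to mir-1008 and among the last 3, and not elsewhere. In the carcass the order was mir-1015 (344), mir-1012 (331), mir-1006 (301), mir-1010 (180.5), mir-1003 (123), mir-1008 (98.5), mir-1004 (58.0), mir-1005 (46.7), mir-1007 (29.5) and mir-1016 (6.66). There the ranges of the first 3 overlapped from one neighbour to the next, as did those of mir-1003 and mir-1008.

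Shares within the mirtron reads do not depend on the scaling between libraries. mir-1012 made up 67.3, 63.3 and 64.0% of the mirtron reads in the intestine and 21.8% in each carcass library. mir-1015 went from 0.159, 0.146 and 0.181% in the intestine to 22.3 and 23.1% in the carcass. mir-1007 held 7.65 ± 1.13% of the 3 intestine libraries and 1.94 ± 0.05% of the 2 carcass libraries (SD). The share of mir-1010 was 2.78 ± 0.46% and 12.1 ± 2.84%. mir-1006 kept nearly the same share, 18.2 ± 1.22% and 19.7 ± 1.76%, and its ranges overlapped. A share also falls when another member rises, so these values describe the make-up of the pool and not the level of each microRNA.

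**Figure D4:**
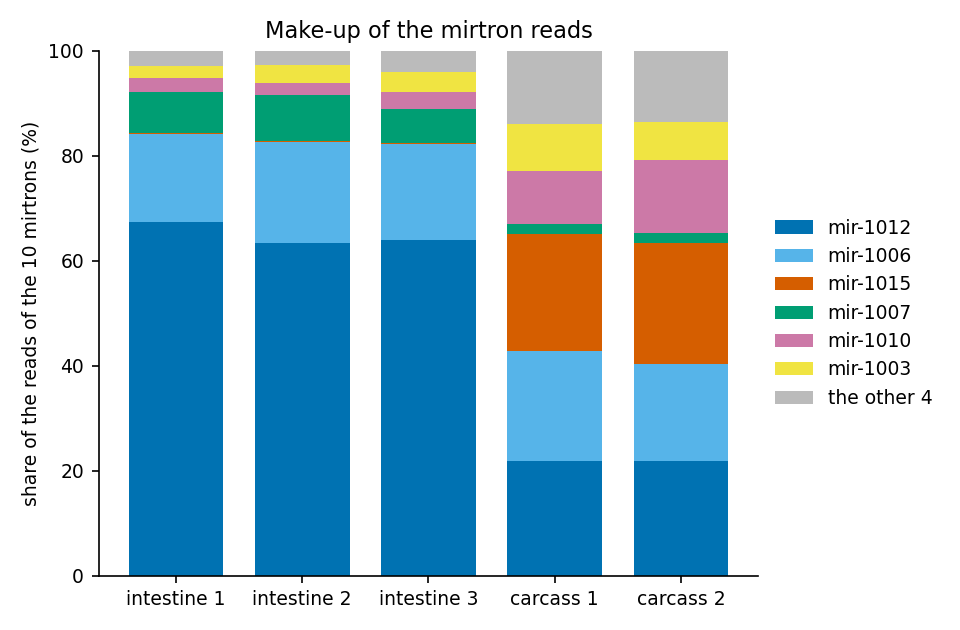
Share of the summed reads of the 10 mirtrons (percent) that came from each hairpin, one bar per library. mir-1012 fills 63.3 to 67.3% of the intestine bars and 21.8% of the carcass bars, where mir-1015 adds 22.3 and 23.1%.

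Arm use was described as the share of a hairpin's reads that came from the 5p arm, for the 8 members with both arm rows. In every library that held at least 10 reads of such a hairpin, the 3p arm had more reads than the 5p arm. On pooled reads the 3p arm was ahead in 6 of 6 mirtrons with at least 10 reads in the intestine and in 8 of 8 in the carcass. Outside the members the 3p arm was ahead in 54.3% of 92 hairpins in the intestine and 49.7% of 151 in the carcass. Among intronic hairpins that are neither known mirtrons nor at both intron ends, it was ahead in 39.4% of 33 and 32.6% of 43. Among 20 further hairpins that lie within 10 nt of both ends of an intron, the 3p arm was ahead in 1 of 1 and in 3 of 3 with enough reads. Of the other hairpins taken as known mirtrons, only mir-1014 had both arms and enough reads, and there the 3p arm was behind in both tissues. This is a description, and the difference between the groups of hairpins was not tested.

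The strongest tissue difference in arm use among the mirtrons was that of mir-1007. Its 5p arm gave 59 of 145, 49 of 120 and 19 of 72 reads in the intestine libraries, which are 40.7, 40.8 and 26.4%. In the carcass libraries it gave 3 of 70 and 2 of 112 reads, or 4.29 and 1.79% (95% exact binomial intervals 0.89 to 12.0% and 0.22 to 6.30%). No intestine interval reached a carcass interval, the lowest intestine bound being 16.7%. The log2 ratio of the 5p to the 3p arm was 4.24 higher in the intestine (diffSpliceDGE of edgeR, adjusted p = 3.23e-09). This rests on the 5 carcass reads of the 5p arm: the difference was 5.86 in thinned libraries, 4.77 without carcass replicate 1 and 3.58 without carcass replicate 2. The hairpin entered this test because its 5p arm passed the low-count filter through the intestine libraries alone. Both arms were called higher in the intestine, miR-1007-3p with a log2 fold change of 2.67 and miR-1007-5p, which is covered by 5 carcass reads in all, with 6.91.

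mir-1006 shifted in the same direction. Its 5p arm gave 15.3, 10.6 and 15.8% of the reads in the intestine against 2.96 and 4.69% in the carcass. The tissues did not overlap, and the log2 ratio of the arms was 1.99 higher in the intestine, nearly 4-fold (3.97; diffSpliceDGE adjusted p = 1.89e-06). The 3p arm was higher in the intestine by less (log2 fold change 1.03, SE 0.25, edgeR adjusted p = 0.000323) and was not called with library totals (0.51, adjusted p = 0.0555), whereas the 5p arm differed by 3.02 (SE 0.33). miR-1006-5p measured 103, 86.1 and 116 CPM in the intestine and 10.4 and 13.9 CPM in the carcass. This arm too passed the low-count filter through the intestine libraries alone, which brought the hairpin into the test of arm use.

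For mir-1012 the arms moved nearly together. The 5p share was 28.2, 44.2 and 38.3% in the intestine against 23.0 and 33.9% in the carcass, so libraries of one tissue differed by more than their counting intervals and the tissues overlapped. The log2 ratio of the arms was 0.55 higher in the intestine and was not called (adjusted p = 0.278), but it was called without intestine replicate 1 (0.85, adjusted p = 0.0425). miR-1012-3p and miR-1012-5p were called higher with log2 fold changes of 2.70 (SE 0.27) and 3.25 (SE 0.29).

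Called differences in arm use were found for 18 of the 85 hairpins with both arms past the filter, 21.2%, and for 2 of the 3 mirtrons among them. The 2 mirtrons had a 5p arm that only the intestine libraries carried past the filter, which favours hairpins with this direction, so the count of 2 of 3 is not read as a result about mirtrons. Both were still called when the filter was dropped. They were called in all 13 alternatives, but the others kept a low-count filter and so do not bear on this selection. By size of the difference mir-1007 ranked 4 and mir-1006 ranked 21 of the 82 hairpins with assigned arms, whose median absolute difference was 0.61. Of the 17 called hairpins with assigned arms, 13 had a higher 5p to 3p ratio in the intestine and 4 a lower one.

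**Figure D5:**
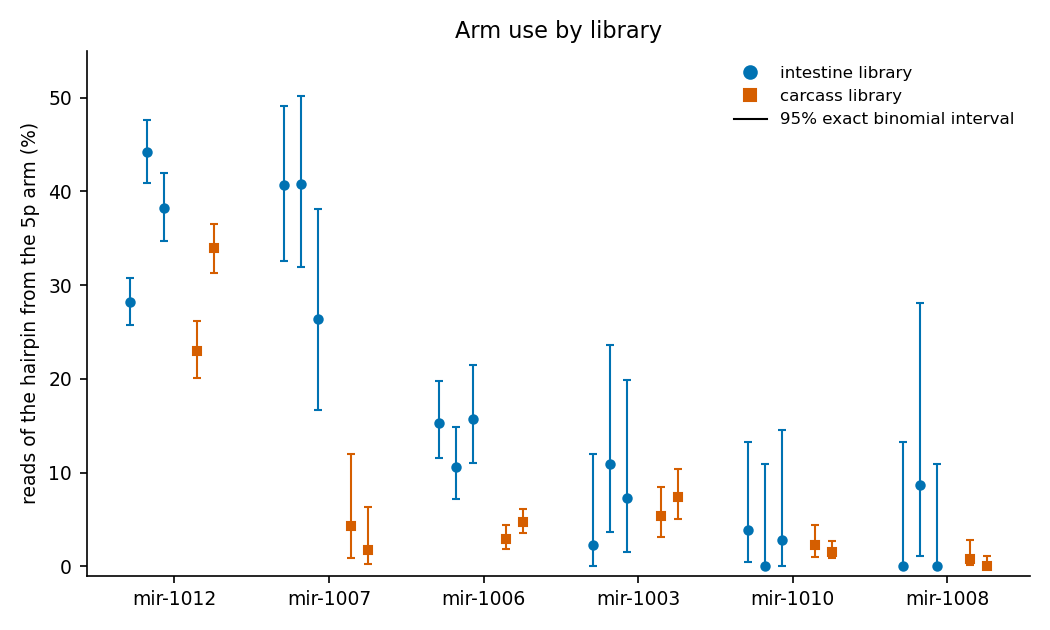
Percent of the reads of a hairpin that came from its 5p arm, per library, with 95% exact binomial intervals, for the 6 mirtrons with both arm rows and enough reads in both tissues. Intestine and carcass libraries separate for mir-1007 and mir-1006 and overlap for mir-1012, mir-1003, mir-1010 and mir-1008.

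The remaining 5p arms were rare in both tissues. That of mir-1003 took 6.82 ± 4.32% of the reads over 3 intestine libraries and 6.37 ± 1.45% over 2 carcass libraries (SD), and that of mir-1010 took 2.21 ± 1.99% and 1.91 ± 0.48%. miR-1008-5p had 2 reads in each tissue against 79 and 582 reads of the 3p arm. miR-1004-5p had 1 read, in the carcass, and miR-1016-5p had 2 intestine reads and 1 carcass read. At this depth no tissue difference in arm use could be measured for these 5 hairpins.

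Arm by arm, 12 of the 18 rows were tested, 6 were called higher and 3 lower in the intestine, against 34.7% and 48.2% of the 222 arms tested. With library totals, 5 were higher and 5 lower. The filter was passed by miR-1006-5p and miR-1007-5p through the intestine alone, by miR-1004-3p and miR-1015-3p through the carcass alone and by the other 8 through both. The arms not called were miR-1003-3p, miR-1005-3p and miR-1008-3p. miR-1008-3p measured 54.6, 64.5 and 116 CPM in the intestine against 122 and 88.3 in the carcass. Its log2 fold change of -0.47 (SE 0.29, edgeR adjusted p = 0.127) passed the threshold in 9 of 14 alternatives. The TMM factors differed between the fits on arms and on hairpins, most for intestine replicate 1 (0.87 and 0.69). Fold changes of an arm and its hairpin can thus differ even where 1 arm holds nearly all reads, near 0 also in sign. The reads of mir-1005, with 1 arm row, gave a log2 fold change of 0.05 as a hairpin and -0.18 as an arm. mir-1003 had 0.10 as a hairpin and -0.09 for its 3p arm. None of these values was called.

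Another 5 hairpins, mir-1009, mir-1011, mir-1013, mir-1014 and mir-1017, were taken as known mirtrons and held 2571 reads. This list need not hold every other known mirtron of the count table. None of the 4 tested was called higher, and 2 were lower, against 33.8% and 51.1% of all tested hairpins. Of the 4, mir-1013 and mir-1017 passed the filter through the carcass libraries alone, and mir-1014 had only 1 intestine library over it. mir-1017, in an intron of the acetylcholine receptor gene nAChRalpha2, is a tailed mirtron, whose hairpin occupies only the donor side of the intron: its 3p arm ends 101 nt before the splice acceptor. It had 1, 1 and 0 reads in the intestine against 335 and 751 in the carcass libraries, for a log2 fold change of -6.32 (SE 0.49, edgeR adjusted p = 3.21e-07). mir-1014, in an intron of salt, had -2.46 (SE 0.39, edgeR adjusted p = 0.000121). Unlike the members, it had more 5p than 3p reads, 457 and 298 in the carcass. mir-1009 in CG3860 (0.24) and mir-1013 in the kinase gene wts (-0.48) were not called, and mir-1011 in Ir93a had 6 reads, all in the carcass.

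A further 20 hairpins of the table lay within 10 nt of both ends of an intron, measured at the outer end of each annotated arm and, where an arm has no row, at the end of the hairpin. No read was found for 2 of these. Only mir-2535b, with 888 reads, and mir-4919 in Cyp4aa1, with 80 reads, passed the filter. Both were called higher in the intestine, as were 33.8% of all tested hairpins. With 9 and 21 carcass reads, mir-4919 passed the filter through the intestine libraries alone. The others of these 20 had at most 45 reads each. Over all hairpins with at least 10 reads, the intestine level on library totals was a median of 44.6% of the carcass level. It was 56.7% for the 10 mirtrons, 25.6% for 4 of the other hairpins taken as known mirtrons and 62.9% for 45 other hairpins inside introns. For 11 of the 20 further hairpins at both intron ends, most of them with few reads, it was 123%.

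The arms outside the mirtrons with the most similar profile were sought among 157 tested arms with reads in every library, by the root mean square difference of log2 CPM around each arm's own mean over the 5 libraries. For miR-1012-3p, the most abundant mirtron arm of the intestine, they were miR-184-5p (0.12), miR-10-3p (0.15) and miR-316-3p (0.15). For miR-1015-3p, that of the carcass, they were miR-276b-3p (0.22), miR-285-3p (0.27) and miR-124-3p (0.29). The 5 libraries fall into 2 tissues, so arms with a similar log2 fold change score as alike, and nothing about shared control follows.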

How the data were processed

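The deposited values are whole-number read counts per mature microRNA arm, made by the authors with cutadapt 1.9.1, Bowtie2 2.3.2 and featureCounts (Subread 2.0.0), per the submitters' processing notes. For build, annotation, strand setting and multiply mapped reads the sources used here give no information. Groups and replicate numbers came from the sample titles. The p-values set the tissue difference against how far these libraries vary within a tissue, which may be technical variation only. Rows were matched by name to the BDGP6.54 annotation (473 of 479), which gave arms, hosts and introns. Its build was not compared with that of the authors.

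Tests used edgeR 4.0.16 in R 4.3.3 (filterByExpr with minimum count 10 and minimum total 15, TMM, quasi-likelihood test without a replicate block) for arms and for hairpins summed over arms. Arm use was tested with diffSpliceDGE. SE was taken as the log2 fold change, without sign, divided by the root of F. All members were named, whatever their values. Members and lists were chosen with earlier results of these data known. Alternatives were other scalings, filters, thinning, a replicate block, DESeq2 1.42.0 (not for arm use) and fits that leave out each library in turn. Where this left 1 carcass library, the fit takes its spread from the intestine. No pair of libraries of the same tissue agreed within sampling noise. Chi-square per degree of freedom was 10.9 for intestine replicates 2 and 3, 49.1 and 52.4 for intestine replicate 1 with these, and 179 in the carcass. Mature sequences are not shown.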

Additional observations from a re-analysis of the deposited data

How the results depend on the processing

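The 3 mirtron hairpins and the arms of mir-1007 and mir-1012 called higher stayed called in every alternative, as did mir-1004 and mir-1015, called lower. However, mir-1004 and mir-1015 entered the test through the carcass alone, and miR-1007-5p through the intestine alone. Of the alternatives, the fit without the filter bears on that selection, whereas most others kept a low-count filter. With library totals, 5 arms and 6 hairpins were lower. Leaving out 1 library gave 6 arms and 3 hairpins higher, 3 to 4 arms and 2 to 3 hairpins lower, and 2 to 3 called differences in arm use. With the replicate block 6 arms were higher and 4 lower, 3 hairpins higher and 2 lower, and 2 differed in arm use. Libraries of the same number deviated from their tissue means with correlations of only 0.03 and 0.02. The deviations of the carcass libraries mirror each other, since there are only 2. These correlations therefore cannot tell whether replicates of the same number were paired. Values near 0 changed sign, and the cause was not tested. mir-1005 as a hairpin had -0.080 with RLE factors, -0.20 with upper-quartile factors, -0.70 with library totals, -0.39 with totals without mir-958, -0.25 without the filter and -0.27 with DESeq2. Without 1 library it ran from -0.30 to -0.010, and its arm had 0.16 when thinned. mir-1003 as a hairpin had -0.15 with upper-quartile factors, -0.61 with library totals, -0.29 with totals without mir-958, -0.14 without the filter, -0.023 when thinned and -0.18 with DESeq2. Without 1 library it ran from -0.28 to 0.24 and its arm from -0.47 to 0.15. The few intestine reads limit mir-1004, mir-1015, mir-1016 and the rare 5p arms.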
